A study of Homo sapiens with 8 samples.

Results

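*TP53I3* and 8 further target genes of the tumour suppressor p53 were followed through 8 RNA-seq libraries of lung adenocarcinoma cells given an electrophile or its vehicle. The 9 genes, *TP53I3*, *MDM2*, *GDF15*, *BBC3*, *FAS*, *TP53INP1*, *ZMAT3*, *RRM2B* and *SESN1*, were taken by name from the 57815 gene identifiers of the expression files, and all 9 were found. They were selected on the difference between electrophile and vehicle in each line, because *TP53I3* had been seen to be higher with the electrophile in one line only, so their responses to it are given below as values without a test.

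p53 is a transcription factor that is normally kept low by the ubiquitin ligase MDM2 and accumulates after DNA damage and other stress. It then switches on genes that halt the cell cycle, repair DNA, reset metabolism or start apoptosis, and *MDM2* itself is one of them, which closes a feedback loop. NRF2 is the transcription factor of the antioxidant response. It is held down by KEAP1, and an electrophile such as diethylmaleate (DEM) inhibits KEAP1 and so lets NRF2 rise. The oxidoreductase that *TP53I3* encodes is a quinone oxidoreductase of the medium-chain reductase superfamily, best known as a p53-induced gene linked to reactive oxygen species.

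ABC1 and HCC4006 are established human lung adenocarcinoma cell lines in which the labels record neither a *KEAP1* nor an *NRF2* mutation. Each was grown in low-glucose DMEM with fetal bovine serum and treated either with DEM (100 μM, 16 h) or with DMSO as the vehicle, and each of the 4 groups was analysed in biological duplicates, numbered 0 and 1. Poly(A) RNA was sequenced with a strand-specific kit, and a gene's level is given as FPKM, the number of sequenced fragments scaled to transcript length and to the mapped fragments of the library. With 2 libraries per group, p-values measure only the spread between these libraries of a single line.

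The libraries were much alike in scale. The largest sum of FPKM was 1.18 times the smallest, and 12515 to 13573 genes per library reached 1 FPKM. The authors' deposited base means, which are depth-scaled counts averaged over the libraries of a line, summed to 13786938 in ABC1 and 13957320 in HCC4006. Of 5 epithelial markers, all 5 were expressed in both lines but not at like levels. *EPCAM* had 388 to 401 FPKM in ABC1 and 234 to 272 FPKM in HCC4006, and *KRT8* and *KRT18* were also higher in ABC1. *KRT7* went the other way, with 10.4 to 25.9 FPKM in ABC1 and 1460 to 2106 FPKM in HCC4006. *CDH1* overlapped between the lines. Of 3 lung adenocarcinoma markers, *NKX2-1* and *NAPSA* stayed under 1 FPKM in ABC1, at 0.502 to 0.763 and 0.234 to 0.646 FPKM. HCC4006 held *NKX2-1* at 42.4 to 47.1 FPKM and *NAPSA* at 12.9 to 16.0 FPKM. *SFTPB* was close to absent from both lines, listed at 0 in ABC1 and at 0.0386 to 0.277 FPKM in HCC4006. *PTPRC*, *CD3E* and *LYZ*, which mark blood cells, stayed at or below 0.192 FPKM in all 8 libraries. *COL1A1*, listed with them as a marker of other cell types, had 3.58 to 5.96 FPKM in ABC1 and 6.17 to 7.64 FPKM in HCC4006. In such bulk samples, fewer cells of a type and less RNA per cell cannot be told apart. As a check of the treatment, all 6 NRF2 target genes listed for this purpose were upregulated in both lines, among them *NQO1* with log2 fold changes of 1.59 in ABC1 and 0.89 in HCC4006, and *GCLM* with 1.61 and 2.15. In ABC1 the call of *NQO1* was lost without any 1 of the 4 libraries (adjusted p = 0.0681 to 0.284 by limma) and that of *GCLM* without either vehicle library (up to 0.194).

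The DNA at *TP53I3* is shown first, because p53 is known to act on this gene through a run of short repeats rather than through its usual binding site. The run was found on the minus strand of GRCh37 at chr2:24307213-24307287, inside *TP53I3* (chr2:24300303-24308731), in an untranslated exon of an annotated transcript. It is 75 bases long in the reference genome and made of 15 units, 9 of TGCCC and 6 of TGTCC. Its first 6 units, 30 bases at chr2:24307258-24307287, read as follows, with TGTCC in capitals.
TP53I3 repeat: tgcccTGTCCTGTCCtgccctgcccTGTCC

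Promoters from RefSeq (GRCh38.p14), reaching from 250 bases before a start site to 50 after it, were available for 7 of the 9 genes, in 15 windows. They were searched on both strands for TGACNNNGC, the core of the antioxidant response element that NRF2 binds together with small MAF proteins. Of the 7 genes, 4 held a match (*FAS*, *MDM2*, *SESN1* and *TP53I3*), in 6 of the 15 windows, and 13.3% of all 35116 promoter windows held one. The matching windows of *FAS* overlap and hold the same match, as do those of *MDM2*. The 6 windows are thus not separate matches, and no enrichment is read from them. The p53 half-site consensus, searched the same way, was matched in 2 of the 15 windows, those of *FAS* and *SESN1*, and in 6.63% of all windows. A match is a run of letters and was not tested for binding. Only runs that fit the consensus at every letter were counted, so a window without a match, such as that of *MDM2*, may still hold a p53 site. The 250 bases before the start site are printed for *TP53I3* and *GDF15*, the members with the highest ratios of DEM to vehicle in ABC1 among those tested, and for 1 start site of *MDM2*, whose window holds a match and whose mean level with DEM was below that with vehicle in both lines. Capitals mark a match on either strand, and *TP53I3* also has a second run, the end of its window, where the only match begins 29 bases past the start site on the minus strand of the gene.
TP53I3, minus strand, chr2:24084835-24085084: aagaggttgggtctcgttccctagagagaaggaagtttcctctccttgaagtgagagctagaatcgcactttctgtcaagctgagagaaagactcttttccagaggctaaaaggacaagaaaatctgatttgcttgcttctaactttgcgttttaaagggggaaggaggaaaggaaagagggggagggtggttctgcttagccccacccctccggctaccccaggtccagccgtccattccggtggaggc
TP53I3, minus strand, chr2:24084785-24084814: ggggctcggGCTTTGTCAccgggacccgca
GDF15, plus strand, chr19:18385908-18386157: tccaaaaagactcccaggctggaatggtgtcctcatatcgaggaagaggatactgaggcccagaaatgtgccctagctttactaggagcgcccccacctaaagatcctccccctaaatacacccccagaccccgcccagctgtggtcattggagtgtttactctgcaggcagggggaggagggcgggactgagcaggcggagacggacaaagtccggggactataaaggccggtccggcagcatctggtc
MDM2, plus strand, chr12:68808767-68809016: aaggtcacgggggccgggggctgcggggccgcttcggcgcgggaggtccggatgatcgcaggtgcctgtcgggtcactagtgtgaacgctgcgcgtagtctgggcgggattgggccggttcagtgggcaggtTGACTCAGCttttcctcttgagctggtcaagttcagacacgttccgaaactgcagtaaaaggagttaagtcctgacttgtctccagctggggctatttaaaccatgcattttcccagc

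*TP53I3* (ENSG00000115129.9) stood at 4.37 and 4.40 FPKM in the vehicle libraries of ABC1 and at 21.2 and 21.4 FPKM in its DEM libraries. In HCC4006 it stood at 41.0 and 43.2 FPKM with vehicle and at 46.4 and 46.1 FPKM with DEM. The 4 groups therefore lay in the order ABC1 vehicle, ABC1 DEM, HCC4006 vehicle, HCC4006 DEM, with no overlap of libraries between neighbours. In ABC1 the mean went from 4.38 ± 0.0227 to 21.3 ± 0.155 FPKM (SD, n = 2), which was 4.87 times the vehicle level. On the scale of log2(FPKM + 1), on which all log2 differences below are given, this was a difference of 2.05 (standard error 0.13), the 33rd highest of the 12635 genes tested in ABC1. In HCC4006 the means were 42.1 ± 1.58 and 46.2 ± 0.22 FPKM (SD, n = 2), a ratio of 1.10 and a log2 difference of 0.13 (standard error 0.07). The response of HCC4006 was thus 1.92 log2 units below that of ABC1 (difference, HCC4006 minus ABC1, -1.92, standard error 0.12). Even with DEM, ABC1 stayed below HCC4006, whose DEM libraries held 2.17 times as much *TP53I3*.

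**Figure D1:**
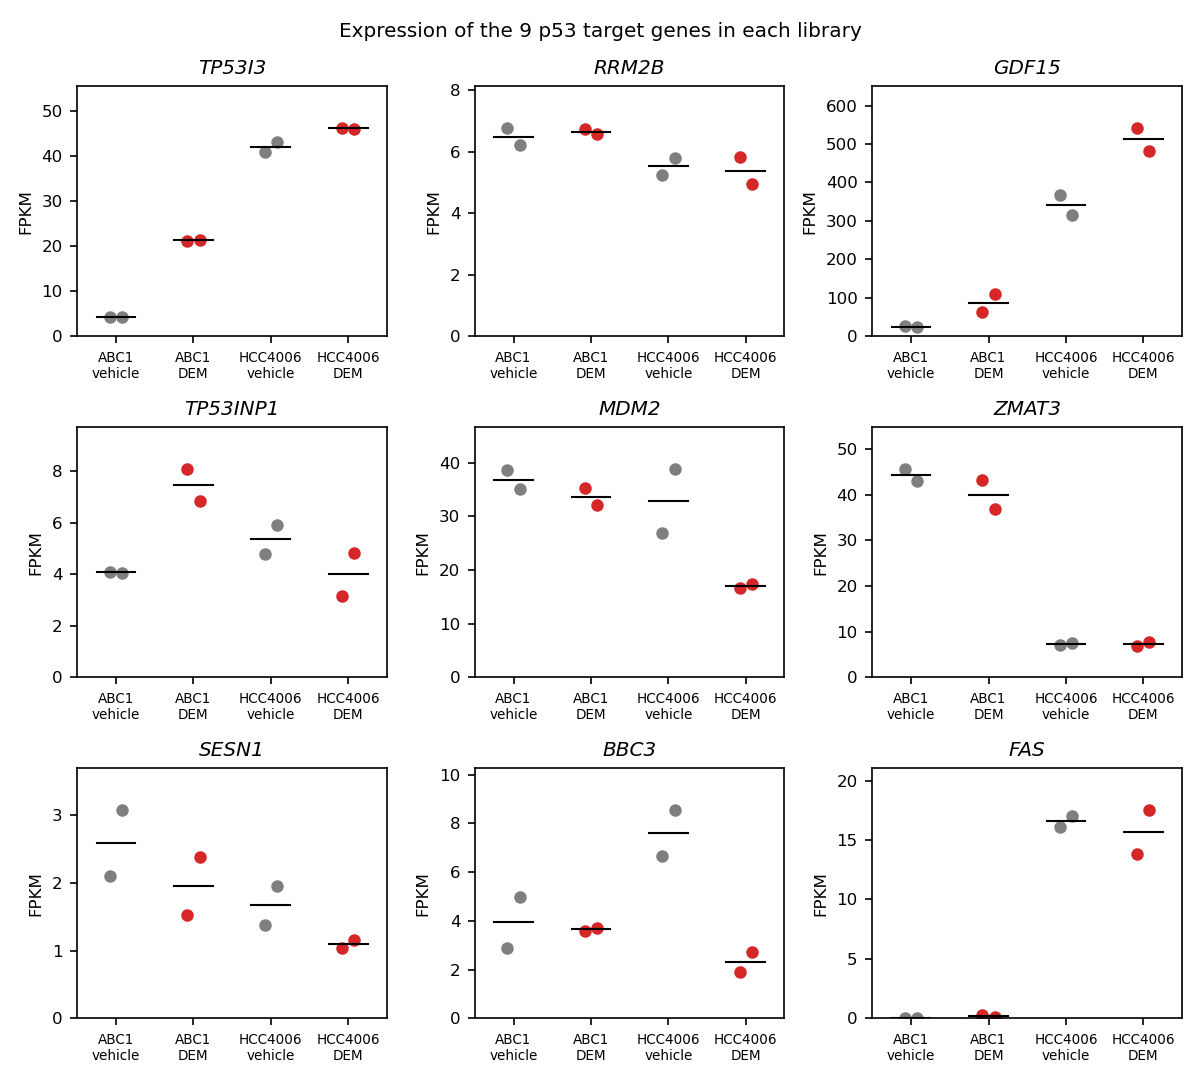
FPKM (linear axes from 0, 1 panel per gene) of the 9 p53 target genes in each of the 8 libraries, by line and treatment, with points for libraries and a line for the group mean. *TP53I3* lies at 4.37 to 4.40 FPKM in vehicle-treated ABC1 and at 21.2 FPKM or more in the other 3 groups, while *FAS* lies at or below 0.25 FPKM throughout ABC1.

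Reads of *TP53I3* may be shared with *FAM228B*, a gene that overlaps it on the opposite strand. *FAM228B* had 2.38 and 1.68 FPKM in the vehicle libraries of ABC1, and 3.11 and 4.34 FPKM in the DEM libraries. In HCC4006 it had 0.891 and 0.607 FPKM with vehicle and 1.63 and 1.95 FPKM with DEM. Its highest level, 4.34 FPKM, lay close to the 4.37 and 4.40 FPKM of *TP53I3* in vehicle-treated ABC1. It was below the 21.2 and 21.4 FPKM of *TP53I3* in ABC1 with DEM. In each line both DEM libraries of *FAM228B* were above both vehicle libraries. How far shared reads enter the values of *TP53I3* was not tested. Whether the authors' counting used the strand is not given in the sources used here. The authors' deposited base mean of *TP53I3*, one value over the vehicle and DEM libraries of a line from a separate table, was 228 in ABC1 and 722 in HCC4006.

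Among the members that act in feedback, arrest and stress signalling, *GDF15*, a secreted cytokine of the TGF-β superfamily that many stresses induce, was the only member besides *TP53I3* above vehicle in both DEM libraries of both lines. In ABC1 it had 26.5 and 24.2 FPKM with vehicle and 62.9 and 111 FPKM with DEM. Both DEM libraries were above both vehicle libraries but differed widely from each other, with the higher level in library 1. The means were 25.3 ± 1.64 and 86.7 ± 33.8 FPKM (SD, n = 2), a ratio of 3.42 and a log2 difference of 1.68 (standard error 0.27), which ranked 52nd of 12635. Without DEM library 1 that log2 difference was 1.28. In HCC4006 *GDF15* was already at 368 and 314 FPKM with vehicle and at 542 and 482 FPKM with DEM, a ratio of 1.50 and a log2 difference of 0.59 (standard error 0.10). So *GDF15* had the same order of groups as *TP53I3*, but its DEM libraries in HCC4006 stood further above vehicle.

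*TP53INP1* encodes a stress-induced nuclear protein that promotes p53 phosphorylation and autophagy. It had 4.10 and 4.05 FPKM in vehicle-treated ABC1 and 8.11 and 6.86 FPKM with DEM. In HCC4006 it had 4.80 and 5.92 FPKM with vehicle and 3.18 and 4.84 FPKM with DEM. The libraries were thus apart in ABC1, with DEM the higher, and overlapped in HCC4006, where the DEM mean was the lower. The log2 differences were 0.74 (standard error 0.16) in ABC1 and -0.36 (standard error 0.20) in HCC4006. The value in HCC4006 was -0.12 without DEM library 0, -0.60 without DEM library 1 and -0.23 without vehicle library 1. *NDUFAF6*, which overlaps *TP53INP1* on the opposite strand, had 25.2 and 22.0 FPKM with vehicle and 16.2 and 15.6 FPKM with DEM in ABC1. Its libraries there differed in the opposite direction to those of *TP53INP1*. In HCC4006 *NDUFAF6* had 12.2 and 13.9 FPKM with vehicle and 9.70 and 9.86 FPKM with DEM. It was thus lower with DEM in that line, as was the mean of *TP53INP1*. Sharing of reads between the genes was not tested.

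*MDM2*, the ubiquitin ligase of p53, was not higher with DEM in either line. It had 38.6 and 35.0 FPKM in the vehicle libraries of ABC1 and 35.3 and 32.0 FPKM in the DEM libraries, which overlapped. In HCC4006 it had 26.9 and 38.9 FPKM with vehicle and 16.7 and 17.4 FPKM with DEM. Both DEM libraries lay below both vehicle libraries there, and the 2 vehicle libraries were far apart. The log2 differences were -0.13 (standard error 0.13) in ABC1 and -0.89 (standard error 0.17) in HCC4006, the second of which ranged from -1.14 to -0.63 when 1 of the 4 libraries was left out.

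*ZMAT3* encodes a zinc finger protein that binds RNA, and it was among the highest members in ABC1 at 45.6 and 43.0 FPKM with vehicle and 43.1 and 36.8 FPKM with DEM. In HCC4006 it had 7.18 and 7.61 FPKM with vehicle and 6.92 and 7.71 FPKM with DEM. Libraries of the treatments overlapped in both lines, with log2 differences of -0.15 (standard error 0.13) and -0.01 (standard error 0.12). *SESN1*, a sestrin that restrains mTORC1 signalling, was low throughout. It had 2.11 and 3.08 FPKM with vehicle and 1.53 and 2.37 FPKM with DEM in ABC1, and 1.38 and 1.96 FPKM with vehicle and 1.04 and 1.15 FPKM with DEM in HCC4006. Its log2 differences were -0.29 (standard error 0.25) and -0.34 (standard error 0.19), and only in HCC4006 did the libraries not overlap. With 1 library left out, the ABC1 value lay between -0.49 and -0.08 and the HCC4006 value between -0.50 and -0.19.

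Of the apoptosis members, *BBC3*, which encodes the BH3-only protein PUMA, had the lowest ratio of DEM to vehicle of all members in HCC4006. It had 6.66 and 8.56 FPKM with vehicle there and 1.92 and 2.71 FPKM with DEM, which was 0.304 times the vehicle mean. The log2 difference was -1.38 (standard error 0.18), the 65th lowest of the 13542 genes tested in HCC4006. In ABC1 the vehicle libraries at 2.90 and 4.99 FPKM enclosed the DEM libraries at 3.58 and 3.72 FPKM, with a log2 difference of -0.06 (standard error 0.24). *FAS*, the death receptor, was close to absent from ABC1, with 0.0271 and 0.0455 FPKM under vehicle and 0.25 and 0.117 FPKM under DEM. The deposited base mean of *FAS* in ABC1 was 2.98, its mean level was below the minimum of 1 FPKM for a test, and no fold is given. In HCC4006 *FAS* had 16.1 and 17.0 FPKM with vehicle and 13.8 and 17.5 FPKM with DEM, a log2 difference of -0.08 (standard error 0.13) with overlapping libraries.

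*RRM2B*, the small subunit of the ribonucleotide reductase that supplies DNA repair with deoxynucleotides, is with *TP53I3* the other metabolic enzyme among the members. Its level lay between 4.94 and 6.78 FPKM in all 8 libraries. It had 6.78 and 6.20 FPKM with vehicle and 6.72 and 6.56 FPKM with DEM in ABC1, and 5.25 and 5.79 FPKM with vehicle and 5.81 and 4.94 FPKM with DEM in HCC4006. The treatments overlapped in both lines, with log2 differences of 0.03 (standard error 0.14) and -0.03 (standard error 0.13), and relative to *GAPDH* the value in ABC1 turned to -0.11.

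**Figure D2:**
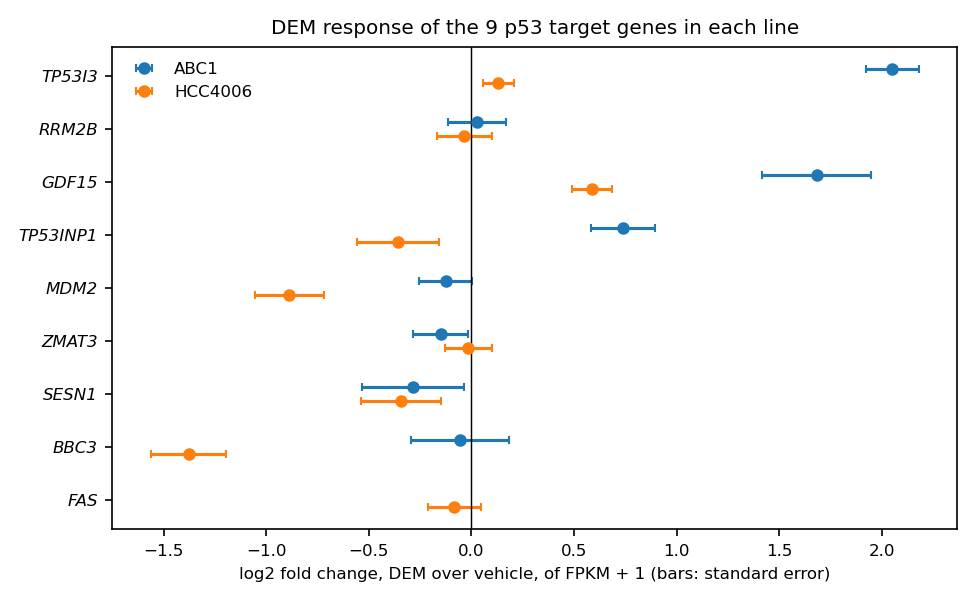
Log2 difference between DEM and vehicle, on the scale of log2(FPKM + 1), of each member in ABC1 and in HCC4006, with bars of 1 standard error. *TP53I3* (2.05) and *GDF15* (1.68) stand furthest to the positive side in ABC1, and *BBC3* (-1.38) and *MDM2* (-0.89) furthest to the negative side in HCC4006.

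Set side by side, the members differed in how DEM compared with vehicle. In ABC1, 3 of the 8 members tested had both DEM libraries above both vehicle libraries, against 25.5% of all genes tested, and 0 of 8 had both below, against 28.2%. The 3 were *TP53I3*, *GDF15* and *TP53INP1*, and *FAS*, which was under the minimum, was also higher in both. The other 5 had log2 differences between -0.29 and 0.03. In HCC4006, 2 of the 9 members were above in both DEM libraries, against 29.3% of all genes, and 3 were below in both, against 35.3%. Those 3 were *MDM2*, *SESN1* and *BBC3*. The median log2 difference of the members was -0.01 in ABC1 and -0.08 in HCC4006, beside -0.02 and -0.03 over all genes tested. Since these contrasts were used in choosing the members, nothing is read from these shares.

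The levels with vehicle were compared between the lines in a model of all 8 libraries with limma and Benjamini-Hochberg adjustment. The members were not chosen on this contrast itself. The same vehicle libraries enter the responses used to choose them, however, so its p-values are not independent of that choice. *TP53I3* was 9.61 times as high in HCC4006 as in ABC1, a log2 difference of 3.0 (95% confidence interval 2.80 to 3.20, adjusted p = 1.2e-07 by limma). *GDF15* was higher in HCC4006 by 3.70 log2 units (adjusted p = 6.5e-06 by limma). *FAS*, which was below the minimum of 1 FPKM in ABC1 and reached it only through HCC4006, is left as the levels above, with no test. *BBC3* was also higher there, by 0.82 (adjusted p = 0.0138 by limma), but this call was lost without vehicle library 0 of ABC1 (adjusted p = 0.0767 by limma) or vehicle library 1 of HCC4006 (adjusted p = 0.0925 by limma).

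One member, *ZMAT3*, was higher in ABC1 with vehicle, by a log2 difference of -2.43 for HCC4006 minus ABC1 (adjusted p = 1.2e-06 by limma). The other 4 did not pass the test. *MDM2* differed by -0.18 (95% confidence interval -0.57 to 0.21), *RRM2B* by -0.20 (-0.48 to 0.08), *SESN1* by -0.42 (-0.91 to 0.07) and *TP53INP1* by 0.32 (-0.11 to 0.75). *MDM2* was called lower in HCC4006 when vehicle library 1 of that line was left out, at a difference of -0.44 (adjusted p = 0.0305 by limma). Apart from *FAS*, 3 of 8 members were higher in HCC4006, against 36.8% of all genes tested, and 1 of 8 was higher in ABC1, against 30.2%. A difference between the lines was thus called for 4 of 8 members and for 66.9% of all genes, which include genes expressed in only one of the lines.

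**Figure D3:**
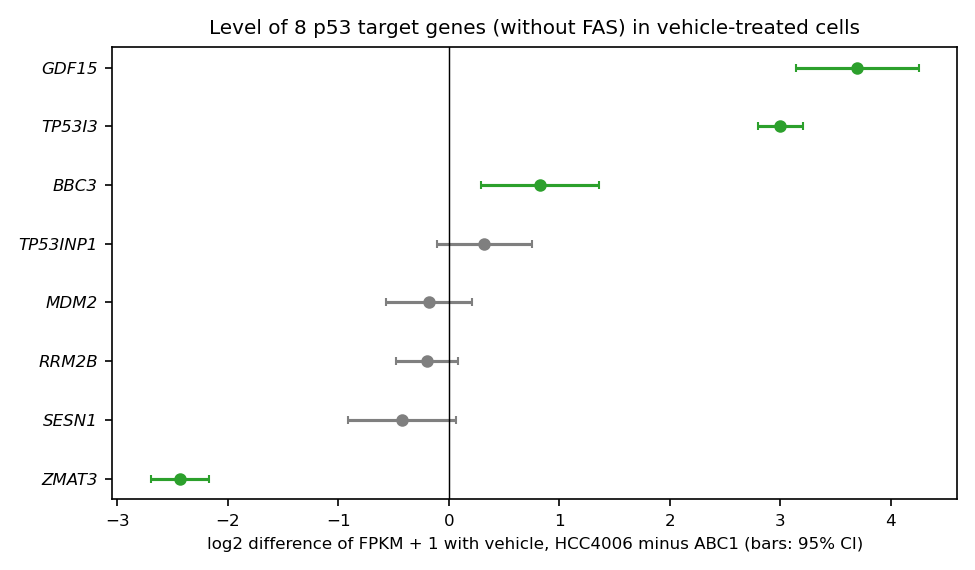
Log2 difference of each member except *FAS* between vehicle-treated HCC4006 and vehicle-treated ABC1, on the scale of log2(FPKM + 1), with 95% confidence intervals from limma. *GDF15*, *TP53I3* and *BBC3* lie to the side of HCC4006 and *ZMAT3* to that of ABC1, and the intervals of the other 4 members include 0.

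A wider list of 89 p53 target genes, of which 87 were matched, was tested for the response to DEM. In ABC1, 74 of them passed the minimum of 1 FPKM, and 1 was upregulated, against 0.768% of all genes, and 0 were downregulated, against 0.435% (limma with Benjamini-Hochberg adjustment). Before adjustment, 23 of the 74 had a p under 0.05, as did 21.9% of all genes tested in ABC1. The upregulated gene was *CDKN1A*, which encodes the cyclin-dependent kinase inhibitor p21 and is the best known p53 target in cell cycle arrest. It rose from 13.1 and 15.9 FPKM with vehicle to 34.8 FPKM in each DEM library. This was 1.22 on the log2 scale, with a standard error of 0.14 (adjusted p = 0.0365 by limma). Its call was lost when any 1 of the 4 libraries was left out, with adjusted p-values of 0.0681 to 0.284. *PMAIP1*, the BH3-only protein NOXA, had a log2 fold change of 0.85 (adjusted p = 0.0705 by limma) and *SESN2*, a stress-induced sestrin, 0.82 (adjusted p = 0.06 by limma), so neither passed. *BAX*, the pore-forming effector of apoptosis, had 0.16 and *GADD45A*, a growth arrest gene, 0.30, with adjusted p-values of 0.47 and 0.359 by limma. The median of the list in ABC1 was 0.02, beside -0.02 over all genes.

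By role, 1 of 15 cell cycle arrest and feedback genes was called in ABC1, and 0 of 10 apoptosis genes, 0 of 6 DNA repair genes, 0 of 16 metabolism, redox and autophagy genes and 0 of 27 genes of signalling, adhesion and other roles. Their medians were -0.04, 0.18, -0.28, 0.05 and -0.03 in this order. A p under 0.05 before adjustment was held by 7, 3, 1, 6 and 6 genes of these groups, beside 21.9% of all genes tested. Of all genes tested in ABC1, 0.768% were called upregulated and 0.435% downregulated, and nothing is read from the counts by role.

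In HCC4006, 79 of the wider list were tested. Of these, 5 were upregulated, against 8.45% of all genes, and 12 were downregulated, against 10.7%, and the median was 0.02, beside -0.03 over all genes. Relative to *GAPDH* the split was 9 up and 11 down. *SFN*, which encodes 14-3-3σ and holds cells at the G2 checkpoint, rose from 292 and 273 FPKM to 1271 and 1123 FPKM, or by 2.08 on the log2 scale with a standard error of 0.08 (adjusted p = 0.000285 by limma). *NOTCH1*, a receptor, rose by 0.75, *PMAIP1* by 0.59, the death receptor *TNFRSF10A* by 0.51 and the hydrolase *CMBL* by 0.36, with adjusted p-values by limma of 0.0214, 0.00986, 0.0434 and 0.0303. The calls of *NOTCH1* and *CMBL* were lost without any 1 of the 4 libraries, at log2 differences of 0.67 to 0.83 and 0.33 to 0.38. That of *TNFRSF10A* was lost without either DEM library or vehicle library 1, with 0.35 to 0.66 over the 4 omissions. That of *PMAIP1* was lost without library 0 of either treatment, with 0.54 to 0.65 over the 4 omissions. *TNFRSF10A* and *CMBL* also failed without the mean-variance trend and in one model of all 8 libraries. *CDKN1A* did not pass in HCC4006. It had 76.4 and 84.2 FPKM with vehicle and 83.7 and 80.0 FPKM with DEM, which is a difference of 0.03 with a standard error of 0.08 (adjusted p = 0.82 by limma).

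The downregulated targets in HCC4006 were led by *BTG2*, an antiproliferative gene, from 8.73 and 7.54 FPKM to 0.833 and 1.46 FPKM, where the log2 difference was -2.10 with a standard error of 0.19 (adjusted p = 0.00279 by limma). *THBS1*, thrombospondin, had -1.34, *PCNA*, the sliding clamp of DNA replication and repair, -1.27, the cytokine *LIF* -1.06 and the glutathione peroxidase *GPX1* -0.97, all with adjusted p-values by limma of 0.00373 or less. These 5 were called also with any 1 library left out. *BAX*, *SESN2* and *GADD45A* had log2 fold changes of 0.22, 0.36 and 0.24, with adjusted p-values by limma of 0.145, 0.0572 and 0.0843. By role, the calls were 1 up and 2 down of 15 arrest and feedback genes, 2 up and 2 down of 12 apoptosis genes, 0 up and 2 down of 6 DNA repair genes, 1 up and 1 down of 19 metabolism genes, and 1 up and 5 down of 27 genes of other roles. Beside them, 8.45% of all genes were upregulated and 10.7% downregulated.

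**Figure D4:**
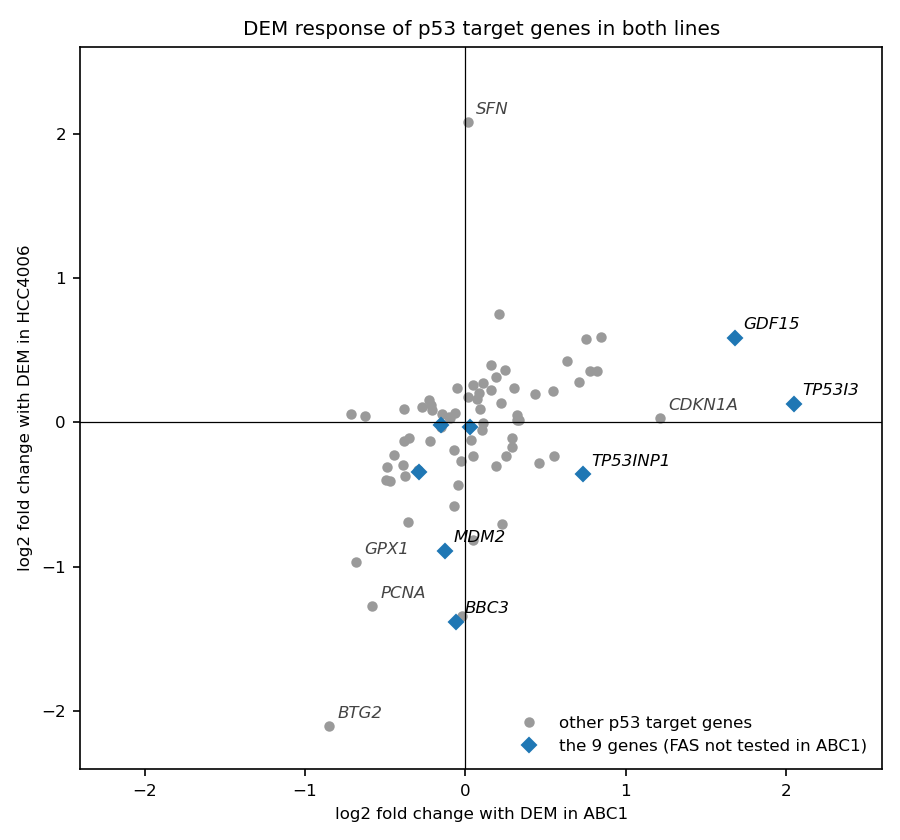
Log2 difference between DEM and vehicle in ABC1 (horizontal axis) and in HCC4006 (vertical axis) of the members and of the wider p53 target list, on the scale of log2(FPKM + 1), for genes tested in both lines. *TP53I3*, *GDF15* and *CDKN1A* lie far to the right, with values of 2.05, 1.68 and 1.22 in ABC1, and *SFN* lies at the top with 2.08 in HCC4006.

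Whether the lines differed in their response was tested for the wider list by the interaction of line and treatment in the model of all 8 libraries. Of 78 genes tested, 1 had the higher log2 fold change in HCC4006, against 0.307% of all genes, and 2 had the higher one in ABC1, against 0.329%. *SFN* differed by 2.06 (HCC4006 minus ABC1, standard error 0.23, adjusted p = 0.0209 by limma), and in ABC1 it stood at 52.7 and 70.5 FPKM with vehicle and 55.5 and 68.6 FPKM with DEM. *CDKN1A* differed by -1.19 (standard error 0.16, adjusted p = 0.0357 by limma), so that its larger response was that of ABC1, as for *TP53I3*. Without 1 of the 8 libraries the adjusted p ranged from 0.0285 to 0.152 for *SFN* and from 0.0462 to 0.167 for *CDKN1A*. Both lost their call without any 1 of the 4 libraries of HCC4006, and *CDKN1A* also without either DEM library or vehicle library 0 of ABC1.

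In vehicle-treated cells, 34 of 78 genes of the wider list were higher in HCC4006, against 36.8% of all genes, and 16 were higher in ABC1, against 30.2%, with a median log2 difference of 0.26, beside 0.07 over all genes. *CDKN1A* was higher in HCC4006 by 2.40 (adjusted p = 1.2e-06 by limma), in the same direction as *TP53I3* and *GDF15*. *BAX* was lower in HCC4006, by a log2 difference of -1.20 (adjusted p = 2.3e-05 by limma).

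The p53 circuit, made up largely of genes whose products act on p53, was examined as a list of 15. In ABC1, 0 of 14 tested were called (limma with Benjamini-Hochberg adjustment), against 0.768% of all genes upregulated and 0.435% downregulated. An unadjusted p under 0.05 was held by 4 of the 14, beside 21.9% of all genes. These are levels of RNA, and proteins were not measured. *MDM4*, a relative of *MDM2* that also restrains p53, had 0.55 (adjusted p = 0.121 by limma) in ABC1 and 0.18 (adjusted p = 0.586 by limma) in HCC4006.

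In HCC4006, 1 of 14 genes of this circuit was upregulated, against 8.45% of all genes, and 3 were downregulated, against 10.7%. *HIPK2*, a kinase that phosphorylates p53, rose by 1.03 (adjusted p = 0.0112 by limma). The p53 relatives *TP73* and *TP63* had log2 fold changes of -1.05 and -0.80, and the checkpoint kinase *CHEK1* had -0.78, with adjusted p-values of 0.0154, 0.0142 and 0.00961 by limma. The calls of *TP73* and *TP63* were lost without any 1 library, at adjusted p-values of up to 0.0752 and 0.077. That of *CHEK1* was lost without DEM library 0 (0.0555), and that of *HIPK2* without vehicle library 1 (0.0514). *CDKN2A*, one of whose products, p14ARF, inhibits MDM2, had 70.8 to 104 FPKM in ABC1 and was listed at 0 in all 4 libraries of HCC4006. These values are for the whole gene and do not separate its products.

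The relatives of *TP53I3* by sequence, the medium-chain reductases, were tested as a list of 9. In ABC1, 0 of 7 tested were called (limma with Benjamini-Hochberg adjustment), against 0.768% of all genes upregulated and 0.435% downregulated. Before adjustment 2 had a p under 0.05, beside 21.9% of all genes, and the 7 log2 fold changes lay between -0.62 and -0.01. In HCC4006, 1 of 8 was called, with 8.45% of all genes upregulated. It was *PTGR1*, prostaglandin reductase, which is a known NRF2 target gene, and it rose from 44.8 and 49.4 FPKM to 94.7 and 91.7 FPKM (log2 fold change 0.97, adjusted p = 0.00206 by limma). In ABC1 *PTGR1* stayed at or below 0.448 FPKM.

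The genes whose levels across the 8 libraries were most like those of *TP53I3* were ranked by Pearson's r of log2(FPKM + 1) over 13681 genes. This is a description over 8 libraries in 4 groups. The co-chaperone gene *DNAJB2* came first with an r of 0.997, followed by *P4HA2*, a collagen prolyl hydroxylase subunit, with 0.989, *SERINC1* with 0.988, the sorting nexin *SNX8* with 0.984 and *SPATA2L* with 0.983. *CDKN1A* was 6th with 0.982, the only gene of the wider p53 list among the first 10, and *RAP1GAP*, *LYRM1*, *UBB* and *DLG5* completed them with 0.980, 0.979, 0.978 and 0.978. *DNAJB2* had 19.0 and 18.9 FPKM in vehicle-treated ABC1, 31.4 and 31.5 FPKM with DEM, 37.3 and 39.0 FPKM in vehicle-treated HCC4006 and 42.3 and 40.3 FPKM with DEM. Of the members, *GDF15* ranked 58th with 0.956, *FAS* 1370th with 0.832, *TP53INP1* 6750th with 0.157 and *BBC3* 7013th with 0.0714. *MDM2*, *RRM2B*, *SESN1* and *ZMAT3* had negative values of -0.59, -0.66, -0.76 and -0.84. When 1 library was left out, 4 to 7 of the 10 genes were again among the first 10.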

How the data were processed

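The deposited FPKM values of 57815 gene identifiers in 8 libraries were used as given. The paper's methods name TopHat and Cufflinks, whereas the submitters' processing notes list cutadapt 1.15, STAR 2.5.3a, Cuffnorm, HTSeq and DESeq2 with the build hg19 (GRCh37.p13). The authors also deposited, per line, a table of DEM against vehicle, from which only the base mean, a signal of depth-scaled counts averaged over a line, was used. Its log2 fold changes, standard errors, statistics and p-values were not used. No counts of single libraries were used, so no counting interval is given.

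Symbols were matched to 55534 identifiers. Positions are from GENCODE on GRCh37, and promoters from RefSeq on GRCh38.p14. Of the listed genes, *SCO2*, *DUSP14* and *PECAM1* were not analysed here, and *ZADH2* was matched by its newer symbol *PTGR3*. The members and all gene lists were chosen with earlier results of these data known.

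Values were transformed to log2(FPKM + 1), which makes the log2 fold change of a low gene smaller than its ratio, and fitted with limma 3.58.1 in R 4.3.3 with a mean-variance trend. Each line was fitted alone on 4 libraries over genes whose mean reached 1 FPKM, and the contrasts between lines came from one model of 8 libraries. A gene was called at a Benjamini-Hochberg adjusted p under 0.05, two-sided, over all genes tested. An exact permutation test (two-sided) of 2 libraries against 2 has 0.333 as its smallest p. The script was tested on simulated data.

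The genes named were the 9 members. From the wider list they were up to 6 called genes per direction and line by size, up to 6 genes called for a difference between lines, and *CDKN1A*, *BAX*, *PMAIP1*, *SESN2* and *GADD45A* whatever their values. *MDM4*, called genes of the p53 circuit, called reductases, the 10 genes most like *TP53I3*, and *NQO1* and *GCLM* were also named. Of the genes this rule takes, 2 are counted in their lists but not reported here. *CDKN2A*, the overlapping genes *FAM228B* and *NDUFAF6*, and the levels of *PTGR1* in ABC1 were chosen after their values were seen. Alternatives were another pseudocount (0.1), a minimum of 5 FPKM or none, no trend, all 8 libraries in one model, 2 other scalings, a replicate block, and leaving out each library.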

Additional observations from a re-analysis of the deposited data

Results flagged for a closer look

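For 2 genes of the wider p53 target list, a test of the difference itself, the interaction of line and treatment in limma with Benjamini-Hochberg adjustment, found unequal responses to DEM in the 2 lines. *SFN* differed by 2.06 log2 units (HCC4006 minus ABC1), its response being that of HCC4006. *CDKN1A* differed by -1.19, its response being that of ABC1. With the replicate number as a block, neither passed (adjusted p = 0.0513 for *SFN* and 0.0655 for *CDKN1A* by limma). *CDKN1A* also failed with a pseudocount of 0.1 (adjusted p = 0.0534 by limma) and relative to *GAPDH* (adjusted p = 0.105 by limma). Its place among the 10 genes most like *TP53I3* (r of 0.982) draws on the same values and is no further test. The same test was not used for the members, since they had been chosen for such a difference.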

How the results depend on the processing

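*TP53I3* kept its direction in both lines under all alternatives run, with a log2 difference of 1.91 to 2.26 in ABC1. The calls of the wider p53 list in ABC1 (1 up, 0 down) were few enough to turn on most settings. They were 3 up with a minimum of 5 FPKM or with scaling by the median of ratios, 0 without the mean-variance trend or without a minimum, 8 up and 4 down in one model of all 8 libraries, and 1 down when scaled to *GAPDH*. For all genes in ABC1 (97 up, 55 down) the counts were 94 down with the 5 FPKM minimum, 27 and 6 without the trend, 0 and 0 without a minimum, 738 and 756 with all 8 libraries, 158 and 93 by median of ratios, and 80 and 165 relative to *GAPDH*, where the median of all genes in ABC1 shifted from -0.02 to -0.16. In HCC4006 the list (5 up, 12 down) gave 3 up without the trend, 1 up and 4 down without a minimum, 3 up with all 8 libraries and 9 up relative to *GAPDH*, and all genes (1144 up, 1447 down) gave 177 and 193 without a minimum, 706 and 847 with all 8 libraries, and 1492 and 1052 relative to *GAPDH*. The differences between lines over all genes (42 and 45) became 173 and 230 without a minimum, 11 and 9 with a pseudocount of 0.1, and 10 and 9 relative to *GAPDH*, and those of the list higher in ABC1 became 0 under the last 2. Relative to *GAPDH*, 5 of the 10 genes most like *TP53I3* remained among the first 10. The causes were not tested.

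When each library was left out in turn, ABC1 had 10 to 51 genes up and 8 to 18 down, with 0 of the list, and HCC4006 had 290 to 464 up and 344 to 564 down, with 1 to 3 and 7 to 9 of the list. The differences between lines numbered 0 to 17 higher in HCC4006 and 2 to 27 higher in ABC1, with 0 to 1 of the list in each direction, and 4 to 7 of the genes most like *TP53I3* remained.

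Libraries share only a replicate number: deviations of same-numbered libraries correlated at 0.258 in ABC1 and 0.0544 in HCC4006, over 2 pairs each, and nothing in the labels ties them. With the replicate number as a block, the calls in ABC1 were 1185 up and 1163 down (list 9 and 6), and the line differences were 1 and 2 (list 0 and 0). In HCC4006 they were 1457 up and 1847 down.

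The only guide to depth is the deposited base means, which were averaged over a line and are not tied to the FPKM values, and *FAS* in ABC1 had a low value in both.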
